A study of Homo sapiens with 6 samples.

Results

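S1a, a population isolated from the human breast cancer line MDA-MB-231, was compared with its parental line on 4 of the 6 expression arrays of the series, 2 arrays of S1a and 2 of the parental line, chosen by their titles. The remaining 2 arrays held S1b, another isolated population of the same line, and were used to estimate the spread and to ask where S1a differed from S1b as well. Total RNA came from cells grown subconfluent in DMEM with 10% serum; no treatment, transgene or deletion is named for any group. Each title ends in a biological replicate number, but no separate culture is named, so the tests cover only how much these particular arrays vary. S1a is 1 isolated population, and no population isolated for another property was measured, so effects of seeding, of isolation and of drift in culture cannot be told apart.

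MDA-MB-231 is a triple-negative line with mesenchymal traits that spreads to bone, lung and brain in mice. S1a and S1b are known from work on tumour self-seeding, in which cancer cells in the circulation return to and grow in an existing tumour. Genes studied in that setting act at the vessel wall and in the tumour bed: secreted proteases open matrix and endothelium, chemokines draw cells in, actin regulators drive movement, and survival genes and loss of antigen display help cells to persist.

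The arrays had been scaled to the same trimmed mean (500.2 signal units), and their medians were 106 and 98.6 units for parental and 87.6 and 91.7 for S1a. Across named probe sets, log2 signals of the S1a pair correlated with r = 0.971, those of the parental pair with 0.958 and those of S1a with parental arrays with 0.945 to 0.947, values that describe the arrays only. The ratio of 3' to 5' probe sets of GAPDH was 1.06 and 1.09 for parental and 0.976 and 0.979 for S1a. The spiked-in poly-A control transcripts averaged 7.50 and 8.28 (log2 signal) for parental and 8.68 and 8.59 for S1a, so they differed between the groups too. Their part in any result below was not tested. Signals of the 8 markers listed for the identity of the parental line summed to 78510 and 81790 units in parental and 53072 and 56103 in S1a. Of these 8, 3 fell, 1 rose and 4 did not pass. Markers of the line's mesenchymal state (VIM, CD44, EGFR, AXL, MSN and CAV1) were bright on all 4 arrays. SPARC lay below 51.6 units, the level used to leave out dim probe sets, in both groups. The luminal markers ESR1, PGR, FOXA1 and the epithelial cadherin CDH1 lay below that level and were not tested. Signals of the 8 markers listed as low in this line summed to 3083 and 3468 units in parental and 3003 and 3148 in S1a. Of these 8 luminal and epithelial markers, 4 lay below that level, 51.6 units, and 4 were tested and did not pass. Of 14 leukocyte markers with a named probe set, 13 lay below it and CD14 did not pass. Below it also lay 7 of 8 endothelial and 2 of 2 erythroid markers, and none of these was at 0.

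Of 7554 genes tested, 3042 (40.3%) passed the threshold (limma with Benjamini-Hochberg adjustment over all tested genes, adjusted p under 0.05), 1509 (20%) higher and 1533 (20.3%) lower in S1a. The median size of a change past the threshold was 0.61 (log2). Fitted changes of at least 2-fold were seen in 634 genes (253 higher, 381 lower). With group means below 51.6 units set to that level, 607 genes kept a change of 2-fold or more. By that measure 34 genes rose and 66 fell 4-fold or more, and 4 genes, which all rose, changed 16-fold or more. The S1a and parental arrays did not overlap in 5360 genes (71%). The median change over all tested genes was -0.02, and it was 0.15 when each array was centred on its median. That centring moved the share of higher genes among those past the threshold from 49.6% to 71.7%, so the balance of rises and falls depends on the scaling. The fit on the 4 arrays alone called 2867 genes, and those without S1a replicate 1 or S1a replicate 2 called 1976 and 1914.

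**Figure D1:**
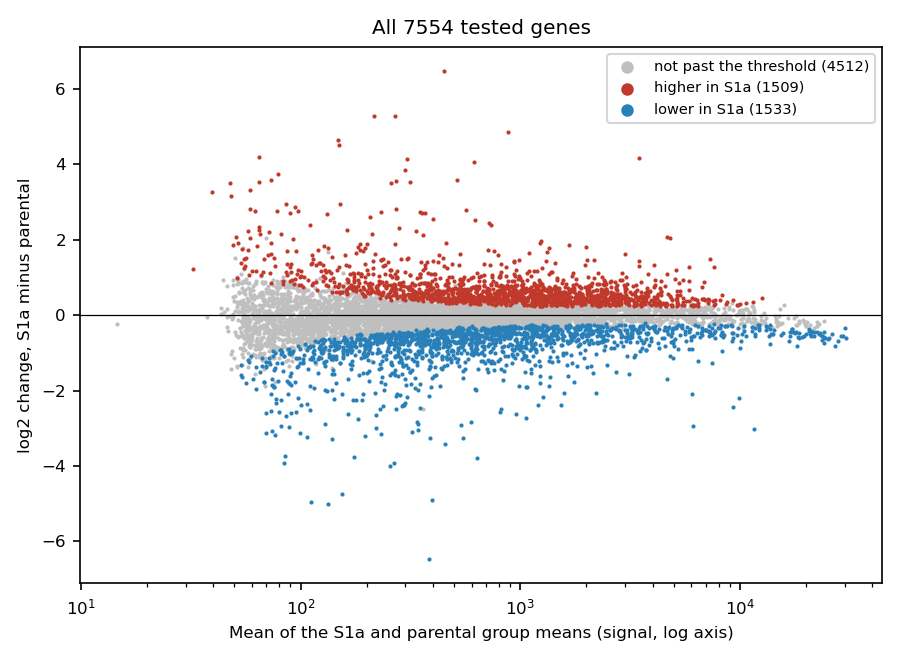
Log2 change of S1a against parental (vertical axis) against the mean of both group means (horizontal log axis, signal units) for the 7554 tested genes; each point is a gene. The 1509 genes higher in S1a are red, the 1533 lower genes blue and the genes that did not pass grey; genes past the threshold are found from dim to bright signals, and the height of a point whose parental or S1a mean is below 51.6 units is a fitted value, not a measured size.

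Secreted proteases led the rises of S1a. The metalloproteinase ADAMTS1, which cleaves proteoglycans of the matrix, had signals of 49.6 and 59.7 on the parental arrays and 1714 and 1695 on the S1a arrays, a log2 change of 4.87 ± 0.12 (± SE, limma adjusted p = 8.99e-09). The interstitial collagenase MMP1 went from 388 and 339 to 6667 and 6534 units (4.17 ± 0.089, adjusted p = 2.93e-09). In both genes the S1a arrays lay close together and far above both parental arrays. The rule that named the largest rises and falls required that the arrays of the groups not overlap. MMP1 was higher still in S1b (12016 and 12232 units), so S1a lay between the other populations (S1a minus S1b -0.88, adjusted p = 0.00114).

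Receptors and signal transducers that were dim in the parental line came up in S1a. IL13RA2, a high-affinity decoy receptor for interleukin 13, had 9.9 and 3.4 units on the parental and 848 and 936 on the S1a arrays, at least 17.3-fold higher (adjusted p = 1.21e-06); where a group mean lay below 51.6 units, folds are given as such lower bounds against 51.6. The Slit receptor ROBO1, a guidance receptor also found on tumour cells, rose from 41.1 and 30.4 to 558 and 563 units, at least 10.9-fold. PLCB1, a phospholipase C that acts below G protein-coupled receptors, rose from 3.23 and 21.5 to 456 and 593 units, at least 10.2-fold. Over these 3 genes the dimmest S1a array had 456 units and the brightest parental array 41.1, a separation that follows from the rule that chose them. ITGB2, the beta chain of the leukocyte integrins, rose from 52.7 and 41.8 to 547 and 617 units, at least 11.3-fold. PTPRN2, a receptor phosphatase-like protein of secretory granules, rose at least 11.2-fold, from 21.6 and 37.8 to 514 and 640.3 units.

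The other leading rises were of mixed function. BCL2A1, a BCL2 family member that protects cells from apoptosis, had 3.28 and 12.8 units on the parental and 386 and 466 on the S1a arrays, at least 8.25-fold higher. KISS1, the precursor of the kisspeptins and known as a suppressor of metastasis, rose by 3.59 ± 0.14, from 77.9 and 73.1 to 851 and 1061 units. KHDRBS3, an RNA-binding regulator of splicing, rose by 4.08 ± 0.26, from 44.6 and 93.7 to 1119 and 1201 units. The brightest parental array of these 3 genes had 93.7 units. GMFG, a regulator of branched actin, rose at least 9.29-fold, from 35.9 and 41.9 to 468 and 491 units. The cancer germline antigen SSX1, a gene usually silent outside the testis, rose at least 9.73-fold, from 23.6 and 61.9 to 529 and 475 units. Near-identical SSX genes can share probes, so which member rose is uncertain.

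**Figure D2:**
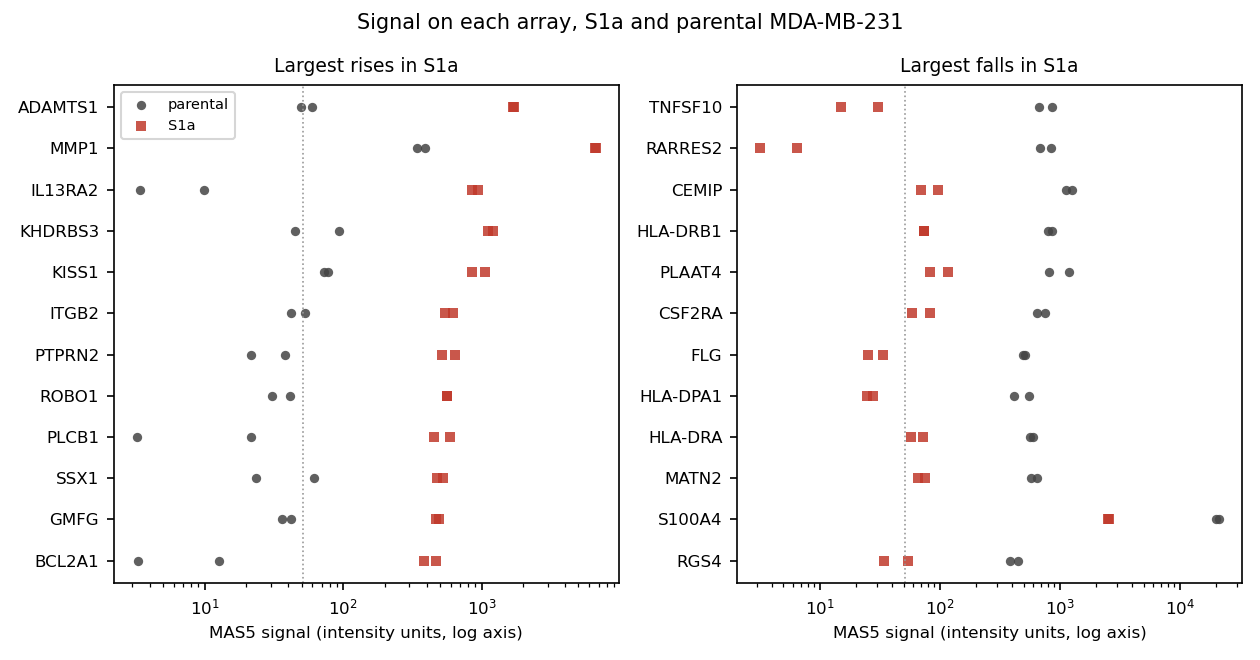
Signal on each array (horizontal log axis, signal units) of the 12 largest rises (left) and the 12 largest falls (right) in S1a; each grey circle is a parental array and each red square an S1a array, and the dotted line marks 51.6 units. The S1a and parental arrays of each gene are apart, by the rule that chose these genes; S100A4 is the brightest, at 20123 and 21248 units on the parental arrays.

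Among the losses were a death ligand, a chemoattractant and class II antigen genes. RARRES2, which encodes the chemoattractant chemerin, had 841 and 687 units on the parental and 6.45 and 3.19 on the S1a arrays, at least 14.8-fold lower (adjusted p = 8.68e-06). TNFSF10, the death ligand TRAIL, went from 871 and 674 to 15.2 and 31 units, at least 15-fold lower (adjusted p = 2.25e-05). The signals of both on the S1a arrays were below the level at which probe sets were tested. CEMIP, which takes part in the breakdown of hyaluronan, fell from 1260.3 and 1120.1 to 70.4 and 97 units (log2 change -3.78 ± 0.26). The metastasis-associated S100A4, of the calcium-binding S100 family, fell from 21248 and 20123 to 2553 and 2509.9 units (-3.03 ± 0.083, adjusted p = 1.29e-08), and remained among the measurable genes. CEMIP and S100A4 were lower again in S1b, at 17.7 and 12.8 and 1289 and 1188 units.

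Falls of similar size were seen in genes of differentiation and signalling. FLG (filaggrin), a protein of the cornified epidermis, fell at least 9.77-fold, from 510.0 and 499 to 25.4 and 33.8 units. PLAAT4, a retinoid-inducible phospholipase and acyltransferase, fell by -3.26 ± 0.24 in log2 terms, from 1186 and 814 to 117 and 83.5 units. CSF2RA, the alpha chain of the receptor for granulocyte-macrophage colony-stimulating factor, had 753 and 652 units on the parental and 59.1 and 83.4 on the S1a arrays (-3.25 ± 0.38). In each of the 3, both S1a arrays lay well below both parental arrays, a separation that follows from the rule that chose them. RGS4, which shortens the signal of G proteins, fell at least 8.11-fold, from 449 and 388 to 54.6 and 34.4 units. The matrix protein matrilin 2 (MATN2) fell from 581 and 647 to 75.7 and 66.4 units (-3.04 ± 0.49).

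Antigen presentation had the highest share of falls among the 37 gene lists that were compared. The list covers class I and class II molecules of the major histocompatibility complex, their peptide transporters and their chaperones, which display peptides to T cells. Of 30 tested genes, 23 fell, none rose and 7 did not pass (median log2 change -0.98, against -0.02 over all tested genes, of which 20.3% fell). The class I heavy chain HLA-B had signals of 13707 and 17728 on the parental and 2887 and 2900.2 on the S1a arrays (-2.43 ± 0.11), and HLA-C went from 14582 and 17837 to 3450.2 and 3559 units (-2.20 ± 0.10). HLA-G fell by -2.08 ± 0.11 as a log2 change, and its probe set may read other class I genes, whose sequences are alike, so the share of each gene in these values is uncertain. Of the class II chains, HLA-DRB1 fell from 799.6 and 861 to 73.8 and 74.1 units, HLA-DRA from 599 and 563 to 72.4 and 58.1, and HLA-DPA1 at least 9.39-fold, from 417 and 552 to 24.9 and 27.6. B2M, the light chain of class I (-0.67), the peptide transporter TAP1 (-1.47), the class II chaperone CD74 (-1.16) and the immunoproteasome subunits PSMB9 (-0.84) and PSMB8 (-0.64) fell as well; these 5 were named after their values were seen. The genes that did not pass were TAPBPL, PSMB10, PSME1, ERAP1, ERAP2, CALR and PDIA3. The summed signal of the 14 leukocyte markers was 423 and 467 units on the parental and 216 and 309 on the S1a arrays, with CD3D and CD3G at no more than 34.7 units on any of them; its part in these falls was not tested.

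Interferon-stimulated genes, which cells switch on against viruses through STAT and IRF factors, fell in S1a as well. Of 44 tested genes, 24 fell, 2 rose and 18 did not pass (median -0.58). IFIT1, which binds viral RNA, went from 1753 and 1944 on the parental to 278 and 273 units on the S1a arrays (-2.73 ± 0.13, adjusted p = 6.61e-07). IFI27 had 1429 and 1352 against 203 and 258 units (-2.58 ± 0.15). BST2, or tetherin, which holds budding virus at the cell surface, fell from 1031 and 862 to 114 and 129.7 units (-2.91 ± 0.18), and IFI44 from 653 and 704 to 191 and 175 (-1.87 ± 0.15). In none of these 4 did an S1a array reach a parental one, and arrays did not overlap in 71% of all tested genes. The fall was not shared by the whole list: MX1 (-0.03, adjusted p = 0.94), IRF7 (0.12, adjusted p = 0.56) and IFITM3 (0.00, adjusted p = 0.98) did not pass, and IFITM2 (0.58) and SP100 (0.49) rose. These examples were chosen after their values were seen.

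The promoters of the 4 falling genes above are printed to show the element through which interferon acts on such genes. RefSeq promoters (GRCh38.p14, 250 bases before to 50 after the start, gene strand) were searched on both strands for GAAANNGAAA, the core of the interferon response element, and matches are in capitals; matches may overlap, as they do in BST2. IFIT1 lies at chr10:89392373-89392672 on the plus strand, IFI27 at chr14:94110486-94110785 on the plus strand, BST2 at chr19:17405581-17405880 on the minus strand and IFI44 at chr1:78649539-78649838 on the plus strand.
IFIT1: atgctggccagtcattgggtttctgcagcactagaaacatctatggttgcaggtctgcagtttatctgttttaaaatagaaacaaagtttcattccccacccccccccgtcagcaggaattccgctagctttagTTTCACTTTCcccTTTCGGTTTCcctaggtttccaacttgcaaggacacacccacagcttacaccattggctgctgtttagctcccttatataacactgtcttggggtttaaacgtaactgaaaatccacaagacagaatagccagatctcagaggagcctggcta
IFI27: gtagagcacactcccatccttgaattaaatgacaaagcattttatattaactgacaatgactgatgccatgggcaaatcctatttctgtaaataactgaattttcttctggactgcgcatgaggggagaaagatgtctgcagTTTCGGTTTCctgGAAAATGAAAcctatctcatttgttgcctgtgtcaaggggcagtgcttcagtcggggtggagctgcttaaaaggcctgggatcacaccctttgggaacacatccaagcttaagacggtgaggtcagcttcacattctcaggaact
BST2: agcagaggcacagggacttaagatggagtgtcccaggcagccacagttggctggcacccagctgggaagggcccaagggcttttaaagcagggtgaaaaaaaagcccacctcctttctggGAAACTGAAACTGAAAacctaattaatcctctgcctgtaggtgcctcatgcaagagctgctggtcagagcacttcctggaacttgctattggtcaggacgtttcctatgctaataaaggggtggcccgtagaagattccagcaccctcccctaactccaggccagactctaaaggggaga
IFI44: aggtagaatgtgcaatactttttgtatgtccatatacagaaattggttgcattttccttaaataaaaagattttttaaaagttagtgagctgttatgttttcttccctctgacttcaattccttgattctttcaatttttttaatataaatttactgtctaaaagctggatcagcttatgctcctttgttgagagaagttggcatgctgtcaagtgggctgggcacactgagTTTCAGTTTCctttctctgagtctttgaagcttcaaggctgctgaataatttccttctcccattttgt

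The motif was present in 17 of 21 promoters of list members that fell, in 9 of 16 of those that did not pass, and in 996 of 27305 promoters (3.65%) in all. Over all tested genes with a promoter it was found in 55 of 1291 that fell (4.26%) and 34 of 1260 that rose (2.7%). Among antigen presentation genes it was found in 5 of 21 that fell, namely HLA-F, TAP2, TAP1, TAPBP and B2M, and in 3 of 6 that did not pass (ERAP1, PSME1 and PSMB10). A match describes letters in this window and shows no binding.

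Cytokine genes changed in both directions. Of 16 tested genes, 6 rose and 6 fell. Their median was 0.37, but -0.11 without parental replicate 2, 0.017 without S1a replicate 2 and -0.017 in the fit on the 4 arrays alone, and with no filter 5 of 39 rose and 10 fell (median -0.26). The neutrophil chemoattractant CXCL1 rose from 105 and 85.2 to 617 and 673 units (2.72 ± 0.14, adjusted p = 9.02e-07), and CXCL8 (interleukin 8), which acts on the same receptor, from 527 and 501 to 1989 and 1918 (1.92 ± 0.097). IL1B, the secreted alarm cytokine interleukin 1 beta, rose from 101 and 83.3 to 618 and 628 units (2.71 ± 0.17). For CXCL1 the S1a mean was 6.79 times the parental mean. The arrays of the groups did not overlap in any of the 3, as was so in 71% of all tested genes. CXCL3 (at least 1.84-fold), IL11 (1.41) and IL7 (at least 3.35-fold) were the other rises, and RARRES2, TNFSF10, IL24 (at least 4.56-fold), IL6 (-1.91), CSF1 (-1.68) and IL15 (-1.08) the falls.

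Among responders of NF-kappa B, the transcription factor that drives many of these chemokines, 5 of 36 tested genes rose and 10 fell (median -0.27). Together 41.7% of this list passed, near the 40.3% over all tested genes. CXCL1, CXCL8, IL1B, BCL2A1 and TRAF3 (0.52) were the rises. The falls took in feedback inhibitors and the factor itself, with NFKBIA at -0.57, NFKBIE at -0.94 and NFKB1 at -0.34, next to TLR2 (-1.81) and MYD88 (-0.52). The letters GGGNNTTTCC, a form of the NF-kappa B site, were found on either strand in 2 of 5 promoters of the rises (CXCL1 and TRAF3), in 3 of 8 of the falls (NFKB1, IL6 and NFKBIA), in 4 of 19 of those that did not pass (REL, CXCL2, TNFAIP3 and TICAM1), and in 523 of 27305 promoters (1.92%). The CXCL1 promoter (chr4:73869143-73869442, plus strand, GRCh38.p14) is printed as that of a chemokine that rose and holds the site, which is in capitals.
CXCL1: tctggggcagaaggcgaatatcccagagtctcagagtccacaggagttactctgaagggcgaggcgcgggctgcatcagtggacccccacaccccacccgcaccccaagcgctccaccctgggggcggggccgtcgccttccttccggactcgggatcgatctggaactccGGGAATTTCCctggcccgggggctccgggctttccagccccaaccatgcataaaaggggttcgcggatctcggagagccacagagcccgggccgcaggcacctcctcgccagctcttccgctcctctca

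Receptors for cytokines were more often lower than higher in S1a. Of 28 tested genes, 12 fell and 6 rose (median -0.39), against 5 and 8 under median centring and 6 and 4 without either S1a array. Both chains of the type I interferon receptor fell, IFNAR1 with -0.99 and IFNAR2 with -0.61, and the interferon gamma receptor chain IFNGR2 went from 1294 and 1218 to 619 and 567 units (-1.08 ± 0.10); IFNGR1 did not pass (-0.06). The interleukin 1 receptor IL1R1 fell (-1.99), as did IL13RA1 (-0.74), which signals where IL13RA2 is a decoy. The rises were IL13RA2, TNFRSF10D (at least 2.12-fold), CXCR4 (1.33), IL7R (0.73), FAS (0.55) and TNFRSF10B (0.56 ± 0.08). TNFRSF10B, a TRAIL receptor, had other probe sets of the opposite sign, and with the mean of its probe sets it was 0.04 and did not pass. Receptors given here without signals were chosen after their values were seen.

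Growth factors, their receptors and patterning pathways moved in both directions. Of 24 tested growth factor ligands, 7 rose and 8 fell, and 4 and 4 without S1a replicate 1. VEGFA, the main angiogenic factor, fell from 4007 and 4038 to 1506 and 1328 units (-1.51 ± 0.089, adjusted p = 1.94e-06) and TGFA, a ligand of the EGF receptor, from 1217 and 810.2 to 226 and 270.1 (-1.99 ± 0.20). HBEGF, another ligand of that receptor, rose from 1653 and 1849.6 to 3100.2 and 2986 units (0.80 ± 0.095). The guidance ligand EFNB2 fell by 0.89 on the log2 scale. Of 18 receptor tyrosine kinases, 4 rose and 3 fell, and 2 and 2 without S1a replicate 1 or with the mean of probe sets. Of these kinases 38.9% passed, near the 40.3% over all tested genes. EPHA2 rose from 1016 and 1252 to 2249 and 2367 units (1.03 ± 0.11). ROR1, a receptor for WNT5A, fell from 442 and 506 to 163 and 179 (-1.45 ± 0.18). EGFR was 0.95 ± 0.097 by its brightest probe set, but its probe sets disagreed, and without those that share probes with other transcripts it was -0.38 and did not pass.

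In the TGF-beta family, follistatin and an activin subunit rose while several receptors and SMADs fell. Of 34 tested genes, 7 rose and 13 fell (median -0.24), against 11 and 8 under median centring, 5 and 7 without S1a replicate 1, 4 and 6 without S1a replicate 2 and 5 and 8 without parental replicate 1. FST (follistatin), which binds and blocks activins, rose from 659 and 789.5 to 2509 and 2724 units (1.85 ± 0.11); INHBB, an activin and inhibin subunit, from 59.4 and 54.4 to 386 and 425 (2.75 ± 0.26); and CCN2, a matricellular target of TGF-beta, from 3622 and 4038 to 10568 and 11088 (1.50 ± 0.088). TGFBI, another TGF-beta target, fell from 1097 and 1227 to 546 and 549.6 units (-1.08 ± 0.10). The receptors ACVR1 (-0.59), ACVR2A (-0.70) and BMPR2 (-1.15), the signal carriers SMAD2 (-1.21) and SMAD4 (-0.46) and the inhibitor SMAD7 (-1.24) fell, and TGFBR1, TGFBR2 and SMAD3 did not pass. Of 26 WNT and Notch genes, 3 rose and 8 fell (median -0.19), and 2 and 4 without S1a replicate 2. The share of WNT and Notch genes that passed was 42.3%, near the 40.3% over all tested genes. The WNT receptor FZD7 fell from 1812 and 1876 to 638 and 572 units (-1.60 ± 0.11), whereas FZD2 rose from 1432 and 1429 to 3085 and 3098 (1.11 ± 0.079). LEF1, a transcription factor of the pathway, was higher as well (1.81 ± 0.31), but with the mean of its probe sets it did not pass (0.70).

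Of the genes that published work found high in metastatic derivatives of this line, more rose than fell in S1a, and the share that rose was highest in the bone-metastatic list. Of 12 tested genes of bone-metastatic derivatives, 10 rose and 1 fell (median 1.45): MMP1, ADAMTS1, FST, DUSP1, FGF5 (1.60), CCN2, IL11, CXCR4, SRGN (1.29 ± 0.082) and FYN (0.51) rose, TRIM24 (-1.22) fell and OPN3 (-0.65, adjusted p = 0.22) did not pass. Among the 15 tested genes of the lung-metastatic list, 7 were higher and 2 lower (median 0.36); MMP1, CXCL1, ROBO1, IL13RA2, KYNU (1.72), MAN1A1 (1.35) and the actin-bundling fascin FSCN1 (1.49) rose, NEDD9 (-2.41) and EREG (-0.39) fell, and ID1, ID3, SPARC, TNC, ANGPTL4 and LTBP1 did not pass. The brain-metastatic list had 13 tested genes, 7 higher and 1 lower (median 0.80). COL13A1, a transmembrane collagen, rose in that list from 2338 and 2504 to 5124 and 5259 units (1.10 ± 0.08) and the collagen lysyl hydroxylase PLOD2 from 676 and 787 to 1389 and 1599.9 (1.03 ± 0.11), and the adhesion molecule L1CAM fell (-1.50). MMP1 is in all 3 lists and FSCN1 in 2, so the lists are not independent, and over all tested genes 20% rose.

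**Figure D3:**
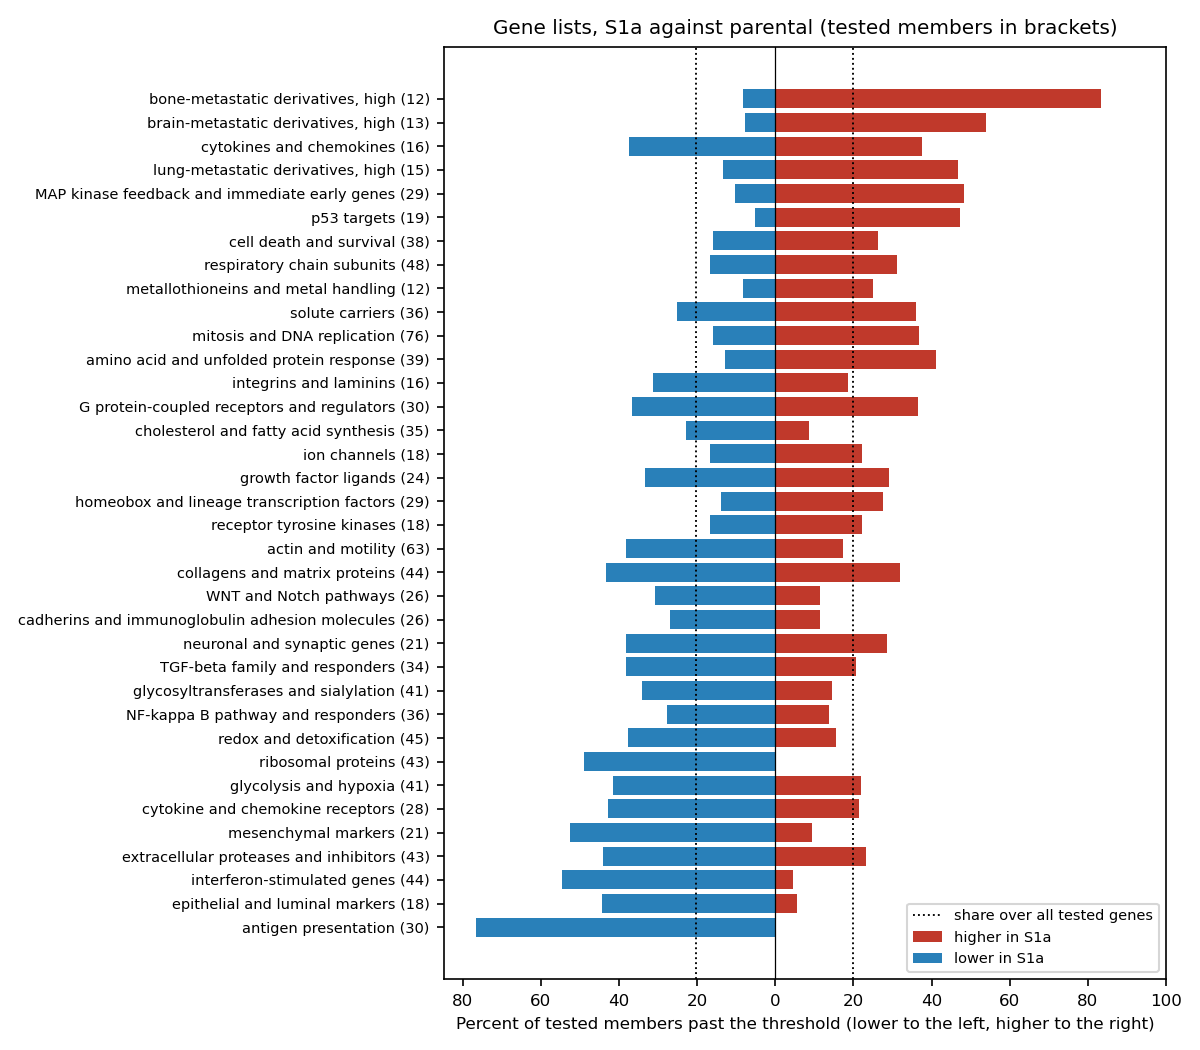
Percent of the tested members of each gene list that were higher (red, to the right) or lower (blue, to the left) in S1a, for the 36 lists with at least 10 tested members, ordered by the median change; dotted lines mark 20% and 20.3%, the shares over all tested genes. The bone-metastatic list has 10 of 12 members higher, and antigen presentation has 23 of 30 lower and none higher.

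Epithelial and mesenchymal markers both lost members. Of 18 epithelial and luminal markers, 8 fell and 1 (PKP2, 0.86) rose; with a stricter filter at the 60th percentile 4 fell. Their median was -0.66, with -0.19 without parental replicate 2, -0.38 without S1a replicate 1 and -0.998 without S1a replicate 2. The keratin KRT7 fell from 1906 and 2134 to 374 and 395 units (-2.38 ± 0.11, adjusted p = 6.61e-07), its relative KRT8 from 2658 and 2556 to 974 and 1077 (-1.34 ± 0.1) and desmoplakin (DSP), which anchors keratins to desmosomes, from 1041 and 936 to 246 and 257 (-1.95 ± 0.13). MUC1 (-2.25), CLDN4 (at least 2.75-fold), TFF1 (at least 2.08-fold) and GATA3 (-1.24) fell too. Of 21 mesenchymal markers, 11 fell and 2 rose (median -0.40). The cadherin CDH11 of mesenchymal cells fell from 1700.0 and 1595 to 245 and 283 units (-2.63 ± 0.12), the transcription factor SNAI2 (Slug) from 1461 and 1517 to 672 and 632 (-1.19 ± 0.10) and caldesmon (CALD1), which binds actin and myosin, from 3039 and 2907 to 1471 and 1417 (-1.04 ± 0.098). ZEB1 (0.42) and smooth muscle actin ACTA2 (1.74) rose, and vimentin (VIM, -0.33, adjusted p = 0.058) did not pass. ACTA2 is also a fibroblast marker; in that list of 9, COL1A2 fell (at least 1.97-fold), COL1A1 did not pass, the other 6 lay below the level for testing, and the summed signal was 545 and 448 units on the parental and 442 and 466 on the S1a arrays.

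Adhesion molecules and integrins moved in both directions. Of 26 cadherins and immunoglobulin-type adhesion molecules, 7 fell and 3 rose, against 4 and 4 under median centring, 5 and 0 without S1a replicate 2, 6 and 1 without S1a replicate 1 and 5 and 1 without parental replicate 1. The share of these adhesion molecules that passed was 38.5%, near the 40.3% over all tested genes. CD99, which takes part in the passage of leukocytes through endothelium, went from 6695 and 7532 to 2235 and 2148 units (-1.69 ± 0.087). CD58, a ligand for T cells, was at -1.14 ± 0.093, and without probe sets of shared-probe suffixes it did not pass (-0.71). Of 16 integrin and laminin chains, 5 fell and 3 rose; their median is near 0 and changes sign under quantile normalization, median centring and when any S1a or parental array is left out. The laminin chain LAMB1 fell from 965 and 1123 to 425 and 429.7 units (-1.28 ± 0.11) and the integrin chain ITGAV, of the vitronectin receptors, from 1698 and 1612 to 968 and 932 (-0.80 ± 0.094), beside the rise of ITGB2. ITGB5, another partner of ITGAV, was at -0.93 ± 0.11 and did not pass without shared-probe suffixes (-0.50).

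Matrix and protease genes passed the threshold more often (75% and 67.4% of members) than tested genes in general (40.3%). Many other lists did so too, such as antigen presentation (76.7%), though not all, such as receptor tyrosine kinases (38.9%). The lists were chosen with earlier results of these data known. Of 44 collagens and matrix proteins, 14 rose and 19 fell (median -0.14, which turns positive under quantile normalization and median centring), and 11 and 12 without S1a replicate 2. EFEMP1 (fibulin 3), a matrix glycoprotein, fell from 2628 and 2483 to 589 and 627 units (-2.06 ± 0.10), and serglycin (SRGN), a proteoglycan of secretory granules, rose from 4520.1 and 4325 to 10693 and 10916. CCN2, HAS2 (2.31), which makes hyaluronan, and THBS2 (at least 2.57-fold) rose while CEMIP fell. Of 43 extracellular proteases and inhibitors, 10 rose and 19 fell (median -0.40). Beside MMP1 and ADAMTS1, the trypsin PRSS3 rose from 247 and 195 to 1236 and 1211 units (2.46 ± 0.13). Cathepsins fell, with CTSS at -2.14, CTSV at -1.58, CTSD at -1.43, CTSL at -1.33 and CTSB at -0.99, and so did the inhibitors CST6 (at least 7.65-fold), SERPINA1 (-2.90), TIMP1 (-1.21) and TIMP2 (-0.66). CTSC (0.47) was the exception among cathepsins past the threshold. PLAUR, the urokinase receptor, was 1.46 ± 0.081 by its brightest probe set and 0.04, not passing, without shared-probe suffixes, while urokinase itself (PLAU) fell (-0.89).

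Feedback genes of the MAP kinase pathway rose together with a few immediate early genes. These phosphatases and Sprouty proteins are made in response to ERK signalling and dampen it. Of 29 tested genes, 14 rose and 3 fell (median 0.33). DUSP1 went from 554 and 458 to 1972 and 1982 units (1.96 ± 0.11, adjusted p = 1.29e-06) and DUSP4 from 1925 and 1828 to 4876 and 5300.1 (1.44 ± 0.089). SPRY1 (1.09), SPRY4 (0.70), SPRED2 (0.80), DUSP5 (0.82), ETV4 (0.80) and FOSL1 (0.33) rose too. DUSP10, a phosphatase that acts on p38 and JNK, fell from 630.4 and 578 to 171 and 205 units (-1.67 ± 0.17), as did EGR1 (-0.89) and IER3 (-0.87). DUSP6 (0.17), SPRY2 (-0.22) and JUN (0.06) did not pass.

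Death and p53 genes held both large and small changes. Of 38 cell death and survival genes, 10 rose and 6 fell (median 0.17), and 6 and 4 without S1a replicate 2. The share of death and survival genes that passed was 42.1%, near the 40.3% over all tested genes. CFLAR, the inhibitor of caspase 8, fell from 1363 and 1444 to 691 and 665 units (-1.04 ± 0.097). The executioner CASP6 fell from 1122 and 1085 to 469 and 479 (-1.21 ± 0.13). The rises included BCL2A1, MCL1 (0.53) and the decoy TRAIL receptor TNFRSF10D, and TNFSF10 was another fall. BCL2A1 and TNFSF10 are among the largest changes described above. Of 19 targets of p53, 9 rose and 1 fell (median 0.32), though 4 rose without S1a replicate 1 and 5 without S1a replicate 2 or without the variance trend. CCNG1 went from 2772 and 3054 to 4150.0 and 4123 units (0.51 ± 0.085) and RPS27L from 4208 and 3957 to 5565 and 5604 (0.45 ± 0.084), ZMAT3 (0.71), XPC (0.75) and AEN (0.82) rose, and PHLDA3 (-0.93) fell. The best known target, CDKN1A (p21), did not pass (-0.16, adjusted p = 0.36), nor did GDF15 or BAX.

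Motility genes were divided. The 63 tested genes of actin and motility gave 11 rises and 24 falls (median -0.13), against 17 and 15 under median centring, where the median is 0.04, and 7 and 16 without S1a replicate 2. Profilin 2 (PFN2), which feeds actin filaments, rose from 918 and 844 to 3130.0 and 3074 units (1.81 ± 0.085, adjusted p = 6.61e-07). The scaffold NEDD9, gelsolin (GSN, -1.35), RHOB (-1.56) and the myosin chains MYH10 (-1.23) and MYL9 (-1.02) fell. The S1a mean of PFN2 was 3.52 times the parental mean.

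Metabolic groups held rises and falls. Of 41 glycolysis and hypoxia genes, 9 rose and 17 fell (median -0.37), against 11 and 11 under median centring and 4 and 13 without S1a replicate 2. Adrenomedullin (ADM), a vasoactive peptide induced in hypoxia, rose from 1572 and 2003 to 7594 and 7517 units (2.09 ± 0.11) although other hypoxia targets fell: VEGFA, TXNIP (-1.32 ± 0.11, from 3636 and 3440.1 to 1252 and 1603 units), P4HA2 (-1.43 ± 0.14), CA12 (-0.99), SLC2A1 (-0.72), PDK1 (-0.70) and LDHA (-0.54). HIF1A itself fell by 0.44 on the log2 scale. Of 39 genes of the amino acid and unfolded protein response, 16 rose and 5 fell. The transcription factor ATF4 rose from 3197 and 3724 to 6866 and 6471 units (0.95 ± 0.094), with its targets ASNS (1604 and 1659.6 to 2969.6 and 2845 units), SLC7A11 (1628 and 1638 to 3149.7 and 3150.2), PHGDH (1.48) and CHAC1 (1.84). The endoplasmic reticulum chaperones HSPA5 (-0.67), HSP90B1 (-0.29) and DNAJB9 (-0.80) fell, as did PDIA4, from 1207 and 1218 to 631 and 653 units (-0.91 ± 0.096).

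Transporters and detoxifying enzymes followed. Of 36 solute carriers, 13 rose and 9 fell. SLC7A11 and SLC3A2, the chains of the cystine and glutamate exchanger, both rose (0.95 ± 0.079 and 0.82 ± 0.088), and the organic anion transporter SLCO4A1 rose from 588 and 461 to 1486 and 1429.9 units (1.48 ± 0.12). SLCO3A1 fell at least 3.12-fold. The zinc exporter SLC30A1 fell by less, from 980.2 and 949.7 to 486 and 511 units. Of 45 redox and detoxification genes, 7 rose and 17 fell (median -0.28), and 4 rose without either S1a array. The estrogen- and carcinogen-metabolising CYP1B1 fell from 9913 and 11598 to 1412 and 1376 units (-2.94 ± 0.11, adjusted p = 2.08e-07), the aldo-keto reductase AKR1C3 from 1892 and 1916 to 545 and 541 (-1.80 ± 0.099) and the extracellular peroxidase GPX3 from 2337 and 2636 to 807 and 819 (-1.61 ± 0.10). The aldehyde dehydrogenase ALDH3A2 rose from 567 and 487 to 1621 and 1693 units (1.65 ± 0.11), as did ALDH3A1 (at least 2.8-fold) and NQO1 (0.95). AKR1C genes are close paralogs, and their probe sets may share targets.

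Lipid, mitochondrial, ribosomal and proliferation genes were compared next. Over all tested genes 40.3% passed, against 31.4% of the cholesterol and fatty acid list and 33.3% of the metallothionein list. Of 35 cholesterol and fatty acid synthesis genes, 3 rose and 8 fell, against 7 and 7 under median centring and 5 and 7 without parental replicate 1; INSIG1, which holds back sterol synthesis, rose from 971 and 784 to 1609 and 1546 units (0.85 ± 0.11) while INSIG2 fell from 524 and 601 to 215 and 196 (-1.43 ± 0.16). Of 48 respiratory chain subunits, 15 rose and 8 fell (median 0.17), against 24 and 2 under median centring and 13 and 2 or 14 and 3 without S1a replicate 1 or 2, with NDUFC1 of complex I at 0.94 ± 0.087 and COX7A2 of complex IV at -0.96 ± 0.10. Of 43 ribosomal proteins, 21 fell and none rose (median -0.29), with RPS18 at 25962 and 31780.5 units in parental and 17408 and 18924 in S1a (-0.66 ± 0.13). This count depended on the scaling: quantile normalization gave 12 higher and 2 lower, median centring 3 lower, and the fits without S1a replicate 1, without S1a replicate 2 and without parental replicate 1 gave 2, 12 and 33 lower. Of 76 mitosis and DNA replication genes, 28 rose and 12 fell (median 0.06), against 34 and 6 under median centring and 18 and 7 or 19 and 7 without S1a replicate 1 or 2, with thymidine kinase TK1 (1375 and 1529 to 2685 and 3033 units, 0.97 ± 0.095) and the replication factor GINS2 (0.94 ± 0.10) among the rises and the repressor E2F8 (1603 and 1474 to 673 and 642, -1.22 ± 0.096) and the kinesin KIF4A (-0.72 ± 0.088) among the falls. Of 12 metallothioneins and metal-handling genes, 3 rose and 1 fell, and 6 and 1 under median centring. Of 41 glycosyltransferases and sialylation genes, 6 rose and 14 fell (median -0.25), against 9 and 8 under median centring, 3 and 9 without S1a replicate 1 or parental replicate 1 and 2 and 8 without S1a replicate 2. The falls included the sulfotransferase CHST15 (1178 and 1275 to 523 and 464 units, -1.31 ± 0.11) and the sialidase NEU1 (-1.17 ± 0.12).

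Transcription factors and genes of other lineages gained and lost members. Of 29 homeobox and lineage factors, 8 rose and 4 fell. FOXA2, a factor of endodermal tissues, rose from 124 and 104 to 673 and 708 units (2.56 ± 0.14, adjusted p = 1.36e-06), TFAP2C, an AP-2 factor of breast epithelium, from 359.5 and 356 to 1225 and 1107 (1.69 ± 0.11) and the orphan nuclear receptor NR2F1 from 93.8 and 79 to 285 and 330.2 (1.79 ± 0.19). The falls were GATA6, from 817 and 800.4 to 302 and 272 units (-1.48 ± 0.13), GATA2 (-1.17), GATA3 and EHF (at least 3.42-fold). Of 21 neuronal and synaptic genes, 6 rose and 8 fell (median -0.23), against 7 and 4 under median centring and 5 and 3 without S1a replicate 1. The teneurin TENM3, an adhesion molecule of synapses, rose at least 5.61-fold, from 8.61 and 6.79 to 290.1 and 289 units, and the granule protein SCG5 fell from 477 and 457 to 153 and 174 (-1.49 ± 0.16). Of 18 ion channels, 4 rose and 3 fell, and 2 and 2 without S1a replicate 2. Of the ion channels 38.9% passed and of the homeobox and lineage factors 41.4%, both near the 40.3% over all tested genes. The potassium channel KCNK1 rose at least 5.24-fold, from 23.3 and 42.2 to 275 and 266 units. The chloride channel gene CLIC3 fell at least 5.1-fold, from 274 and 253 to 3 and 6.03. Of 30 G protein-coupled receptors and regulators, 11 rose and 11 fell, and 7 and 6 or 6 and 6 without S1a replicate 1 or 2; PLCB1 rose and RGS4 fell by the most. Of 42 cancer germline antigens listed, 4 could be tested. SSX1 rose, SSX3 rose at least 2.7-fold from 9.88 and 6.14 to 145 and 134 units, MAGEA6 rose (0.76 ± 0.24, a call that ended without either S1a array) and SPANXB1 (-0.14) did not pass.

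Fewer genes passed against S1b than against the parental line. Against S1b, 149 genes (1.97%) passed the threshold, 113 higher and 36 lower in S1a. This count was 371 and 358 without parental replicate 1 and 2, 34 and 36 without S1a replicate 1 and 2, 46 and 30 without S1b replicate 1 and 2, and 13 without the variance trend. In 59 genes S1a passed in the same direction against both other populations, 49 higher and 10 lower (9 to 114 genes when an array was left out, lowest without S1b replicate 2); both comparisons share the S1a arrays. IL13RA2 stood out most, with 66.4 and 83.7 units on the S1b arrays, so that S1a was 11.9-fold brighter than S1b (log2 3.51, adjusted p = 0.00109). SSX1 had 56.4 and 58.1 units in S1b, and S1a was 8.77-fold brighter (3.05). IL1B was graded, with 297 and 246 units in S1b between the parental and S1a signals (1.19, adjusted p = 0.00808).

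Further genes at which S1a lay above both populations followed. STOML1, a stomatin-like membrane protein, had 353 and 244 units in parental, 271 and 267 in S1b and 733 and 766 in S1a (S1a minus S1b 1.46). Its relative stomatin (STOM), a scaffold of membrane rafts, had 507 and 530.1, 370.4 and 435 and 1119 and 1074 units in the same order (1.44); the fall of STOM in S1b and its rise in S1a both passed, but against parental the rise did not pass with the mean of probe sets. PYGB, the brain form of glycogen phosphorylase, rose from 678 and 735 in parental to 1272 and 1380.3 units in S1a and was 626 and 691 in S1b. The zinc finger genes ZNF160 and ZNF721 were 0.99 ± 0.15 and 0.89 ± 0.11 above parental and 0.95 and 0.76 above S1b. The cytidine deaminase APOBEC3G (1.43 ± 0.22 against parental) and ZC3H7B (1.36 ± 0.22) belong to this group, but with the mean of their probe sets they did not pass (0.78 and 0.01), and the probe sets of ZC3H7B disagree.

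**Figure D4:**
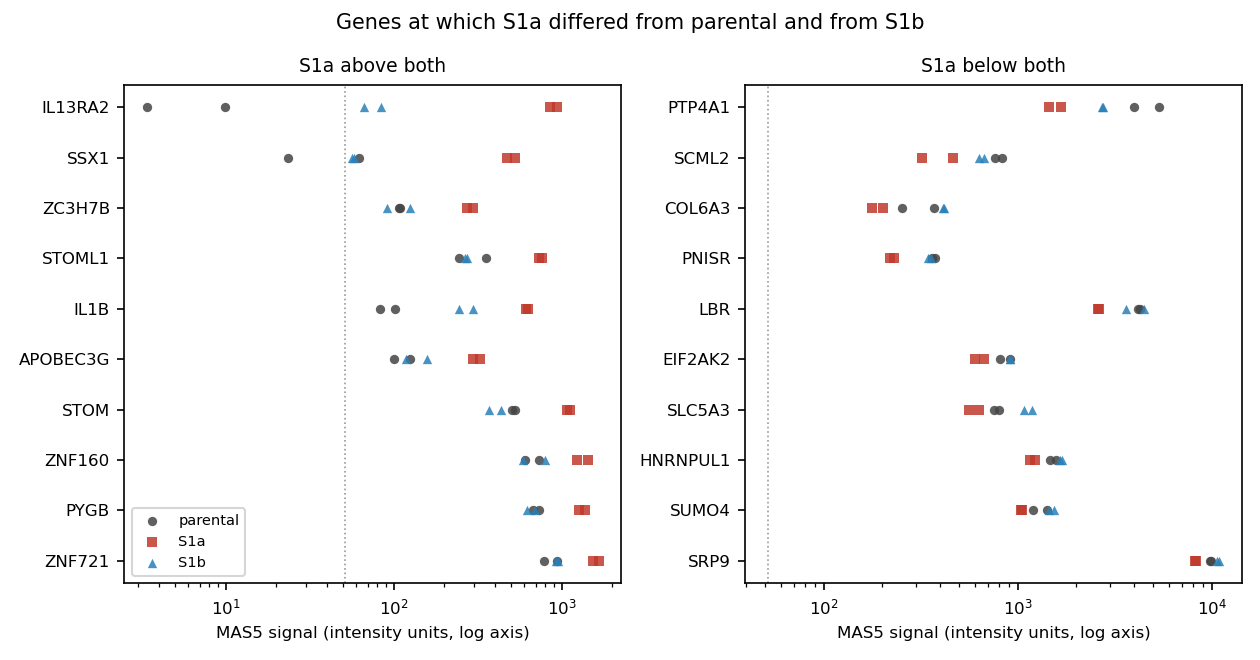
Signal on each array (horizontal log axis, signal units) of the genes at which S1a was higher (left) or lower (right) than both the parental line and S1b; grey circles are parental arrays, red squares S1a, blue triangles S1b, and the dotted line marks 51.6 units. IL13RA2 and SSX1 show the widest gaps, while the genes on the right differ by less than 3-fold from S1b.

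Below both populations lay 10 genes. The phosphatase PTP4A1 (PRL-1), linked to growth and invasion, had 5382 and 3968 units in parental, 2728 and 2746 in S1b and 1444 and 1672 in S1a (-1.57 ± 0.13 against parental). SCML2, a Polycomb protein, was -1.04 ± 0.16 against parental and -0.75 against S1b. The lamin B receptor LBR, which ties chromatin to the nuclear envelope, had 4153 and 4288, 3634 and 4454 and 2613 and 2583 units in the same order (-0.70 ± 0.10). PTP4A1, SCML2 and LBR kept their calls against parental under the alternatives that gave them a value, and SCML2 had none without shared-probe suffixes. The falls of COL6A3 (-0.69 ± 0.19), PNISR (-0.70 ± 0.14), EIF2AK2 (-0.43 ± 0.11), SLC5A3 (-0.38 ± 0.11), SUMO4 (-0.32 ± 0.10) and SRP9 (-0.26 ± 0.082) against parental each failed to pass under at least 1 alternative. HNRNPUL1 (-0.35 ± 0.087) changed sign with the mean of its probe sets, which disagree (0.04).

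In 6 genes S1a and S1b moved past the threshold in opposite directions from the parental line, a comparison in which both share the parental arrays. Higher in S1a and lower in S1b were STOM, ITGB4, TRIB3, SLC35E1 and AMIGO2, and lower in S1a and higher in S1b was SLC5A3, a myo-inositol transporter. ITGB4, the integrin chain of hemidesmosomes, had 361 and 393 units in parental, 569.6 and 546 in S1a and 244 and 204 in S1b, although another of its probe sets had the opposite sign. TRIB3, a pseudokinase induced by ATF4, had 624 and 644, 819.9 and 847 and 530.2 and 477 units in that order. Where S1a was higher, its difference from S1b ran from 0.63 for AMIGO2 to 1.44 for STOM. The difference passed in all 6 genes, as picking genes with opposite calls all but ensured.

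The changes were unevenly spread over the chromosomes. On the X chromosome 151 of 260 tested genes fell (58.1%, against 20.3% over all genes) and 16 rose, with a median change of -0.52. The falls were found along its whole length: in each of 13 consecutive blocks of 20 genes the median was negative, from -0.99 to -0.36. Under the alternatives, the share that fell was 30.7% to 67.7% and the median -0.56 to -0.34. The lysosomal membrane protein LAMP2 (-1.53), the scaffold kinase CASK (-1.91), MORC4 (-1.87) and CD99 were among the falls. IL13RA2, SSX3, SSX1, NAP1L3 (at least 3.27-fold) and CHRDL1 (2.73) rose on the same chromosome. In S1b, measured against the same parental arrays, 152 of the 260 genes fell, with a median of -0.51.

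Other chromosomes leaned less. Chromosomes 7 (132 of 340 genes lower, 38.8%), 6 (160 of 413, 38.7%) and 9 (102 of 289, 35.3%) had many falls. Many rises were on chromosomes 16 (100 of 344 genes higher, 29.1%, with 23 falls and a median of 0.22), 5 (93 of 329, 28.3%), 3 (122 of 438, 27.9%) and 17 (119 of 434, 27.4%). The order of the chromosomes with many rises changed between alternatives. In S1b, against the same parental arrays, 134, 144 and 93 genes fell on chromosomes 7, 6 and 9. There, 104, 101, 120 and 128 genes rose on chromosomes 16, 5, 3 and 17. Runs of 25 neighbouring tested genes were ranked by their median. Leading this ranking were CHCHD2 to GTF2I on chromosome 7 (median -0.89, 16 lower and 1 higher), COTL1 to ANKRD11 on chromosome 16 (0.82, 16 higher and 1 lower), PLCXD1 to OFD1 on X (-0.75, 19 lower) and SETDB1 to S100A2 on chromosome 1 (-0.73, 15 lower). In S1b, against parental, the medians of these runs were -0.76, 0.65, -0.85 and -0.66 in the same order, so they are not particular to S1a. The run from SNHG32 to HLA-DPB1 on chromosome 6 holds part of the antigen presentation genes (-0.64, 16 lower and 1 higher, and -0.92 in S1b). Against S1b the leading run was AP5S1 to ZNF133 on chromosome 20 (0.46, 6 higher). In that run S1b itself lay below the parental line, with a median of -0.33. Of the 113 genes higher in S1a than in S1b, 16 were on chromosome 20, which held 218 of the 7554 tested genes. Over all tested genes 1.5% were higher than in S1b. Among the 16 were PCNA, GINS1, CST3, DSTN, TRIB3 and PYGB. These runs were chosen by size after the values were seen, and copy number was not measured.

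**Figure D5:**
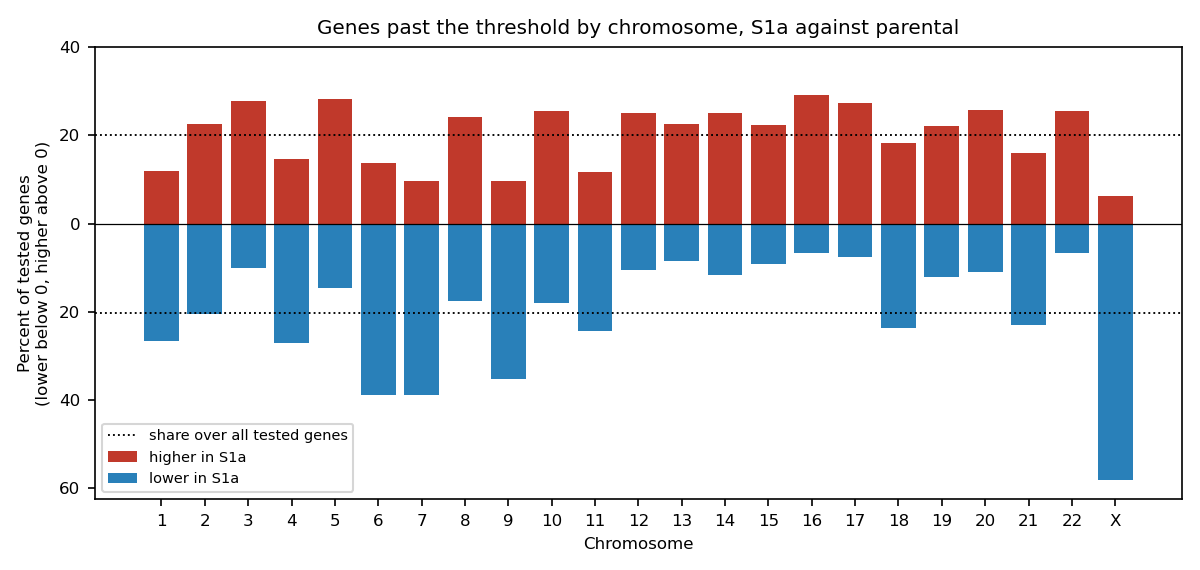
Percent of tested genes on each chromosome that were higher (red, above 0) or lower (blue, below 0) in S1a than in parental; dotted lines mark 20% and 20.3%, the shares over all tested genes. The X chromosome has 58.1% lower and 6.15% higher genes, and chromosome 16 has 29.1% higher and 6.69% lower.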

How the data were processed

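Biotin-labelled total RNA was measured on 6 Affymetrix expression arrays, 2 each of parental MDA-MB-231, S1a and S1b, grouped by their titles. The deposited intensity values, linear and not logged, were computed by the authors for every probe set of every array with MAS5 per the submitters' processing notes; its version and settings are not given in the sources used here. The background correction was kept as deposited, without scanner files or detection calls. Arrays have no read depth, and their number limits the precision.

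Of 22277 probe sets, 62 controls were left out; of the other 22215, 19064 carried a single gene symbol in the platform annotation, 1043 several and 2108 none, and only the first kind was used. Symbols were updated by gene identifier through a RefSeq gene table (GRCh38.p14), which matched 19052. A gene took its probe set with the highest mean, and 7554 of 11963 genes passed a filter at the 40th percentile (51.6 units). Log2(signal + 3.949), the added value being the 10th percentile, was fitted with limma 3.58.1 in R 4.3.3 (group means over all 6 arrays, variance trend), so that all groups shared an estimate of the spread, and fold changes of dim genes are understated. The fit was tested on simulated data.

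Named genes are the 12 largest rises and falls past the threshold without overlap of arrays, the 10 largest of each direction apart from both populations, and up to 4 members of each list with the smallest p-values; others are said to be chosen after their values were seen, or are list members given by their change alone. One gene that this rule names is not reported here. The genes and lists were chosen with earlier results of these data known. Alternatives were pseudocounts of 1 and 25, no filter and a filter at the 60th percentile, quantile, cyclic loess and median scaling, other probe set rules, no variance trend, array weights, a replicate block, the 4 arrays alone and each array left out.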

Additional observations from a re-analysis of the deposited data

Results flagged for a closer look

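In 37 of the genes named above, the effect against the parental line differed between S1a and S1b, tested as S1a minus S1b with limma (adjusted p at most 0.0471); values are log2 differences of S1a from S1b. S1a was higher in 26. IL13RA2 (3.51) rose more in S1a, and S100A4 (1.03) fell less in S1a. SSX1 (3.05) rose past the threshold against parental in S1a and did not pass in S1b. CEMIP fell less in S1a too, at least 1.62-fold above S1b; its fitted difference of 2.19 is no measured size, since its S1b mean lay below 51.6 units. Membrane and adhesion genes in this set are STOML1 (1.46), STOM (1.44), ITGB4 (1.31) and AMIGO2 (0.63). Secreted and matrix-related genes are IL1B (1.19), EFEMP1 (0.83), FST (0.68), P4HA2 (0.68) and CXCL8 (0.46). Against parental, EFEMP1 and P4HA2 fell in S1a, while IL1B, FST and CXCL8 rose. Amino acid and redox genes are TRIB3 (0.72), SLC7A11 (0.63), SLC3A2 (0.42) and ALDH3A2 (0.60), and phosphatases of the MAP kinase pathway are DUSP1 (0.51) and DUSP4 (0.42). The others are ZC3H7B (1.39), APOBEC3G (1.17), PYGB (1.01), SLC35E1 (0.96), ZNF160 (0.95), ZNF721 (0.76) and KRT8 (0.46). S1a was lower in 11: COL6A3 (-1.12), SLC5A3 (-0.92), MMP1 (-0.88), PTP4A1 (-0.82), SCML2 (-0.75), PNISR (-0.64), LBR (-0.63), EIF2AK2 (-0.52), SUMO4 (-0.51), HNRNPUL1 (-0.49) and SRP9 (-0.39). MMP1 thus rose in both isolates, and less in S1a. Most of these genes were named because S1a stood apart from S1b, so their number says nothing about the array as a whole, where 1.97% passed.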

How the results depend on the processing

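Of 149 named genes, 122 kept their direction and their call against parental under all alternatives that gave them a value, 27 missed the threshold under at least 1, and 2 changed sign: HNRNPUL1 with the mean of probe sets (0.039) and EGFR with shared-probe suffixes left out (-0.38). Against parental, median centring gave 2282 genes higher and 900 lower. Without shared-probe suffixes, with 4590 genes tested, 1722 passed, 892 higher and 830 lower, and 405 changed at least 2-fold; with the filter at the 60th percentile 354 did. Leaving out an array gave 1914 to 2921 genes past the threshold, 912 to 1500 higher and 1002 to 1459 lower, lowest without S1a replicate 2 (1914) and S1a replicate 1 (1976). Against S1b, 63 genes passed with no filter, 60 with the mean of probe sets, 61 without shared-probe suffixes, 13 without the variance trend and 335 with array weights; 30 to 371 passed when an array was left out, with 371 and 358 without parental replicate 1 and 2, 34 and 36 without S1a replicate 1 and 2, and 46 and 30 without S1b replicate 1 and 2. The genes apart from both numbered 25, 20, 25, 3 and 108 under the same 5 settings and 9 to 114 with an array left out. With the replicate number as a block (replicate block), 2757 genes passed against parental, 65 against S1b and 27 in both. Over all tested genes, same-numbered arrays showed little joint deviation (correlations of 0.0086, -0.074 and -0.096). The labels give them no more than a shared number, and whether they shared handling was not tested. Apart from the smaller numbers of genes or arrays, the cause of these shifts was not tested. A lone array of a group was assumed to vary like the others. Detection calls were not used here, so a dim probe set gives only a bound.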
